A study of Mus musculus with 16 samples.

Results

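The genotype difference was examined in mouse hearts given succinate, which make up 8 of the 16 hearts sequenced. Membership followed the sample labels: 4 hearts labelled Myh6Cre Gpr91fl/fl plus succinate (Cre hearts) were set against 4 hearts labelled Gpr91fl/fl plus succinate (floxed hearts). All 16 hearts carried floxed Gpr91 alleles and came from mice on a high-fat diet and L-NAME, which blocks nitric oxide synthases, for 12 weeks, a treatment that models HFpEF (heart failure in which the ejection fraction is preserved). The remaining 8 hearts, 4 Cre and 4 floxed, had the model without succinate and are called untreated here. In Myh6Cre mice the recombinase is driven by the promoter of the cardiac alpha myosin heavy chain gene, which is active in cardiomyocytes, so the receptor of other heart cells is not targeted. No group carried Cre without floxed alleles, so the presence of Cre and the loss of the receptor cannot be told apart. The labels give no dose or duration of succinate and no sex or age of the mice. Whether the 4 hearts of a group are 4 different animals is not in the labels, so the p-values reflect only how these samples vary, which may be technical.

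GPR91, now named SUCNR1, is a receptor on the cell surface that binds extracellular succinate and signals through G proteins of the Gi and Gq families. Inside the mitochondrion the same molecule is an intermediate of the tricarboxylic acid (TCA) cycle, made by succinyl-CoA synthetase and oxidised by succinate dehydrogenase. In the heart, succinate is known to accumulate in ischaemia, and the receptor has been linked to hypertrophic signalling. The comparison asks what differs between the genotypes while this ligand is supplied.

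Libraries held 30578334 to 34700996 counts in Cre hearts and 27835235 to 33120930 in floxed hearts. At least 1 count was found for 18657 to 19127 genes in Cre hearts and for 18038 to 18376 in floxed hearts, ranges that did not overlap. Untreated hearts showed a like split, with 18537 to 19130 genes in Cre hearts and 18067 to 18245 in floxed hearts. The part of this breadth in the results was not tested. Levels are given in CPM, counts scaled to a common library total, and 3 counts stood at 0.0865 to 0.108 CPM over the 16 libraries, a floor that covers counting error only. Cardiomyocyte markers summed to 67070 to 75760 CPM in Cre hearts and 70060 to 77200 CPM in floxed hearts, which matches the labelled tissue. Of the 10 markers, among them Myh6 (the alpha myosin heavy chain) and Tnnt2 (cardiac troponin T), 0 differed between the groups.

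The targeted gene, Sucnr1, had 13, 3, 13 and 2 counts in replicates 1 to 4 of the Cre hearts and 5, 2, 7 and 0 counts in the floxed hearts. Its level was 0.243 ± 0.196 CPM in Cre hearts and 0.111 ± 0.0981 CPM in floxed hearts (SD, n = 4 each). The groups overlapped, and the difference of 0.132 CPM gave p = 0.314 in a two-sided exact permutation test, whose smallest possible value with these group sizes is 0.0286. The mean was not lower in the hearts labelled Cre. At 0 to 13 counts in bulk tissue, where other cells keep the gene, the level gives no check of a deletion in cardiomyocytes. Cre and floxed below refer to the labels.

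Cre hearts given succinate differed from floxed hearts mainly by higher genes. Muscle genes typical of skeletal fibres were among them, led by the fast calcium pump Atp2a1 at 36.2-fold. Cardiac stress genes such as Nppa (8.73-fold) and Ankrd1 (2.15-fold) were higher, as were enzymes of serine, proline and folate metabolism. The alpha-1A adrenergic receptor gene Adra1a was lower. In edgeR's quasi-likelihood test, 101 of 14607 genes had an adjusted p under 0.05 (0.691%, Benjamini-Hochberg), 80 of them higher (0.548%) and 21 lower (0.144%). At least a 2-fold difference was found in 51 of them, 47 higher and 4 lower. An unadjusted p under 0.05 was reached by 1617 genes (11.1%). Over all genes the median was -0.01 on the log2 scale, and 47.7% had positive values. These shares are the background for the counts of each list below, and no list was tested against them. The 2 groups of 4 did not overlap in 97 of the 101, against 7.02% of all tested genes (4.63% with the Cre hearts above and 2.40% with them below). As the 101 were picked by the difference between these same hearts, that separation follows from the choice and adds no evidence for them.

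Single libraries weighed on that count. Without replicate 1, 2 or 3 of the floxed hearts, 46, 66 and 51 genes passed. Without replicate 2, 3 or 4 of the Cre hearts, 67, 44 and 56 passed. Of the 101 genes, 35 passed when any of the 8 libraries was left out, and 0 changed direction under any alternative. For most genes named below, failures with a library left out are given beside the gene or its list.

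Genes of skeletal-type contraction and calcium release were higher by 1.91-fold (Mybpc2) to 36.2-fold (Atp2a1). Atp2a1 encodes SERCA1, the calcium pump of fast skeletal fibres. It measured 20.5, 16.9, 18.6 and 16.7 CPM in the Cre hearts and 0.423, 0.507, 0.483 and 0.539 CPM in the floxed hearts. Every Cre heart exceeded every floxed heart by more than an order of magnitude, and the difference was 5.18 ± 0.25 on the log2 scale (SE, adjusted p = 5.68e-10). Ryr1, the calcium release channel of skeletal muscle, had 64, 47, 72 and 56 counts in Cre hearts and 2, 3, 2 and 0 counts in floxed hearts. Its fitted difference of 4.87 ± 0.49 (adjusted p = 3.57e-05) rests on floxed levels at or near the floor. Casq1, which stores calcium in the sarcoplasmic reticulum of fast fibres, measured 9.55, 9.69, 11.7 and 7.32 CPM in Cre hearts and 1.99, 2.03, 2.67 and 2.69 CPM in floxed hearts, without overlap. That is a 3.96-fold difference (adjusted p = 0.00881), which missed the threshold without replicate 1 of the floxed hearts (adjusted p = 0.0502).

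The promoters of 3 skeletal-type genes that rose are shown, as examples that hold the motif described here. They are RefSeq sequences of build GRCm38.p6, each 300 bases from 250 before to 50 after the start, read 5′ to 3′ on the minus strand. Atp2a1 lies at chr7:126463024-126463323, Casq1 at chr1:172219846-172220145 and Acta1 at chr8:123894726-123895025. Capitals mark CANNTG, the E-box that muscle regulatory factors among others can bind, which reads the same on both strands.
Atp2a1: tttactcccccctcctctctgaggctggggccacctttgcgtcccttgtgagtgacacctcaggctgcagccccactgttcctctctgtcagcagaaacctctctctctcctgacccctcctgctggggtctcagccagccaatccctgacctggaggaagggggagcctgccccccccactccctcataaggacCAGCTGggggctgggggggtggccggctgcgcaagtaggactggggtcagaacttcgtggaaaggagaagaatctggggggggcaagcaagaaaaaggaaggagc
Casq1: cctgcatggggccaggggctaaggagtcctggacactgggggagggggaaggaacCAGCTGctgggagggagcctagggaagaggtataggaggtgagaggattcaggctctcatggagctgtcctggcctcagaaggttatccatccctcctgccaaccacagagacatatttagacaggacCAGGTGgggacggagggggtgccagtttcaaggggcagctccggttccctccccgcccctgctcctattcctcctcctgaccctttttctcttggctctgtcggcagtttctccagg
Acta1: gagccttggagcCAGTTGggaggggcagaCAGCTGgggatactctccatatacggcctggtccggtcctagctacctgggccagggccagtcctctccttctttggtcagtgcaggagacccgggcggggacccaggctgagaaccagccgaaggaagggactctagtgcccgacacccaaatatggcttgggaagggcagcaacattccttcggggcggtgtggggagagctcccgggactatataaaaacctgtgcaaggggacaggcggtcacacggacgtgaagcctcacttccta
The letters occur 1 time for Atp2a1, 2 times for Casq1 and 2 times for Acta1. They occur in 72.3% of 32851 RefSeq promoters of this length, so most promoters hold a match, which is not in itself a binding site. Of the other risen skeletal-type genes, Mybpc2 had 2 matches and the 2 promoters of Tnni1 had 4 and 2. Ryr1, with the largest difference after Atp2a1, had 0. No promoter sequence was at hand for Tnni2 and Tnnt3.

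The troponins of fast and slow skeletal fibres followed the same direction. Tnni2, fast troponin I, measured 3.43, 5.78, 3.62 and 3.72 CPM in Cre hearts and 0.755, 0.811, 0.354 and 1.08 CPM in floxed hearts. It was 5.40-fold higher (adjusted p = 0.0013), and every Cre heart lay above every floxed heart. Tnnt3, fast troponin T, averaged 1.38 ± 0.16 CPM in Cre hearts and 0.208 ± 0.060 CPM in floxed hearts, a 6.41-fold difference (adjusted p = 0.00533). Tnni1, the slow troponin I that the fetal heart also uses, had 15, 11, 15 and 6 counts in Cre hearts and 2, 3, 2 and 1 counts in floxed hearts. Its 5.11-fold difference (adjusted p = 0.029) failed when any of 6 of the 8 libraries was left out, with adjusted p up to 0.102 without replicate 3 of the Cre hearts. Mybpc2, fast myosin-binding protein C, averaged 26.7 ± 3.6 CPM in Cre hearts and 13.6 ± 1.9 CPM in floxed hearts (1.91-fold, adjusted p = 0.00343).

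Acta1, skeletal alpha-actin, is a sarcomere gene that the stressed heart re-expresses. It measured 1212, 858, 1103 and 849 CPM in Cre hearts and 303, 347, 393 and 199 CPM in floxed hearts. The lowest Cre heart stood at more than double the highest floxed heart, and the fold was 3.17 (adjusted p = 0.031). This call needed all 8 libraries: leaving out any of them gave adjusted p-values of 0.0543 to 0.112.

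Of the 12 tested genes on the list of skeletal muscle contraction and calcium, 7 rose, 0 fell and 5 did not pass. Of all tested genes 0.548% rose. The list median was 1.54 on the log2 scale. With a library left out, 5 to 7 passed. The 12 had passed a filter on low counts, and 12 more genes in the table had not. Ryr1, Tnni1 and Tnnt3 passed that filter only through the Cre hearts, where they were higher. Tnni1 had 1 to 3 counts in every floxed heart. The count and median of the list carry that selection. Among members that did not pass, Mylpf, the fast regulatory light chain, averaged 1.59 CPM in Cre hearts and 0.73 CPM in floxed hearts (1.10 ± 0.37 on the log2 scale, adjusted p = 0.215). Myl1 (0.36 ± 0.22) and the skeletal calcium channel gene Cacna1s (-0.39 ± 0.20) overlapped between the groups.

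Defining genes of skeletal fibres were at or near 0. The fast myosins Myh1 and Myh2 reached at most 0.196 CPM and 0.0327 CPM in a Cre heart, against 0 CPM and 0.0359 CPM in a floxed heart. Pvalb, the calcium buffer of fast fibres, lay at 0.0327 to 0.150 CPM in Cre hearts and 0 to 0.483 CPM in floxed hearts. The 13 skeletal markers summed to 2852 to 3023 CPM in Cre hearts and 2082 to 2504 CPM in floxed hearts. Most of each sum came from Acta1 and from Ckm, the muscle creatine kinase, which the heart also uses and which did not pass (-0.09, adjusted p = 0.896).

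**Figure D1:**
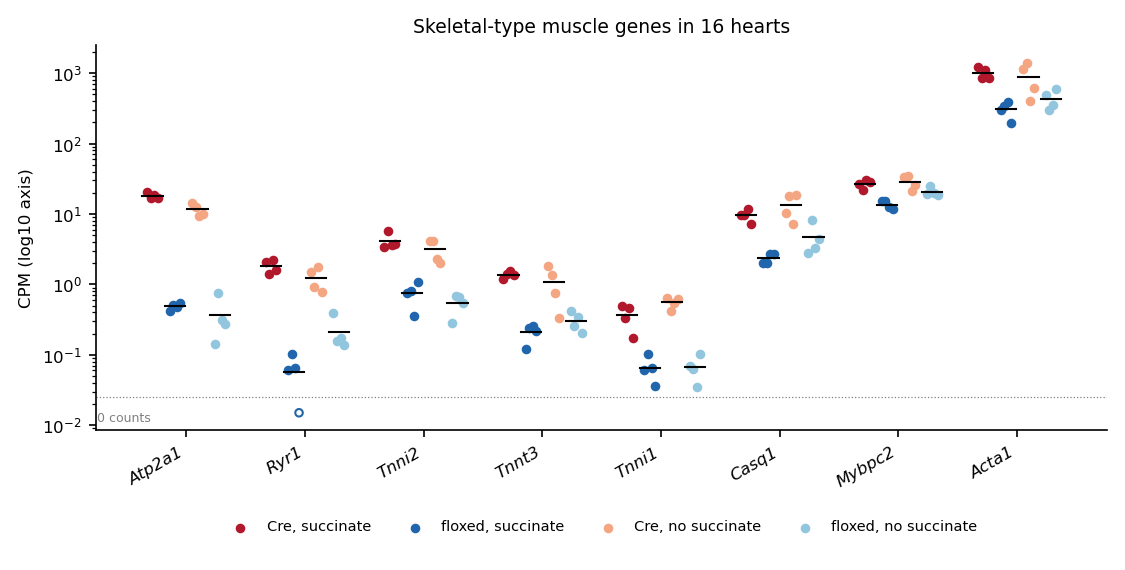
CPM of 8 skeletal-type muscle genes (log10 axis), 1 point per heart, with the mean as a bar; Cre hearts stand left of floxed hearts for each treatment, and open points below the dotted line are hearts with 0 counts. The 4 Cre hearts given succinate lie above the 4 floxed hearts given succinate for every gene plotted, by 36.2-fold for Atp2a1 and 1.91-fold for Mybpc2.

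Even where they rose, the skeletal forms stayed far below their cardiac counterparts per length. On the authors' FPKM scale (scaled for gene length and library total), Atp2a1 averaged 5.28 in Cre hearts and 0.142 in floxed hearts, whereas Atp2a2, the cardiac pump SERCA2, averaged 1823 in Cre hearts and 1958 in floxed hearts. Ryr1 averaged 0.119 FPKM in Cre hearts and 0.00366 FPKM in floxed hearts, beside 64.7 FPKM in Cre hearts and 66.2 FPKM in floxed hearts for the cardiac channel Ryr2. Casq1 averaged 5.10 FPKM in Cre hearts and 1.25 FPKM in floxed hearts, beside 280 FPKM in Cre hearts and 238 FPKM in floxed hearts for cardiac Casq2. None of the cardiac forms Atp2a2 (-0.14 ± 0.13 on the log2 scale), Ryr2 (-0.07 ± 0.20), Casq2 (0.20 ± 0.11), Tnni3 (-0.25 ± 0.15), Tnnt2 (-0.08 ± 0.10) and Mybpc3 (0.21 ± 0.11) passed in edgeR. Ryr2 changed sign when replicate 1 or 3 of the floxed hearts or replicate 2 of the Cre hearts was left out (0.02, 0.03 and 0.09). Of 19 cardiac sarcomere genes and 20 cardiac calcium cycling genes, 0 passed in edgeR or DESeq2, with 1 and 0 at an unadjusted p under 0.05.

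Genes that mark stress of the ventricular myocardium were higher in Cre hearts. Nppa, the atrial natriuretic peptide gene, measured 502, 443, 932 and 900 CPM in Cre hearts and 90.2, 77.2, 63.4 and 77.6 CPM in floxed hearts. The Cre hearts formed a lower pair and a higher pair, both far above every floxed heart, and the difference was 3.13 ± 0.46 (log2, SE, adjusted p = 0.00461). Ankrd1, a stretch-responsive ankyrin repeat protein of the sarcomere, measured 2128, 2160, 2438 and 2085 CPM in Cre hearts and 1085, 882, 951 and 1064 CPM in floxed hearts. Each Cre heart had about double the level of the floxed hearts (2.15-fold, adjusted p = 0.00236). Uchl1, a ubiquitin hydrolase best known from neurons, averaged 13.1 ± 2.55 CPM in Cre hearts and 6.75 ± 0.755 CPM in floxed hearts (1.89-fold, adjusted p = 0.000702).

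Gdf15, a secreted stress cytokine, measured 3.60, 6.74, 6.89 and 5.91 CPM in Cre hearts and 1.03, 1.66, 1.51 and 0.934 CPM in floxed hearts. The groups did not overlap and the fold was 4.40 (adjusted p = 0.0328), but the gene passed in only 1 of the 8 fits that left out a library, with adjusted p up to 0.146 without replicate 1 of the floxed hearts. Of the 16 tested genes of the cardiac stress and fetal list, 6 rose (Uchl1, Ankrd1, Nppa, Tnni1, Acta1 and Gdf15), 0 fell and 10 did not pass. The list median was 0.71 on the log2 scale, and 3 to 5 members passed with a library left out. With replicate numbers as a block, 3 passed.

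The brain natriuretic peptide gene Nppb did not pass. It measured 200, 459, 316 and 345 CPM in Cre hearts and 86.1, 138, 197 and 127 CPM in floxed hearts (1.24 ± 0.29, adjusted p = 0.0638). Every Cre heart was above every floxed heart, the lowest Cre heart only just. Myh7, the slow myosin of the fetal and stressed ventricle, averaged 402 ± 99 CPM in Cre hearts and 260 ± 24 CPM in floxed hearts (0.60 ± 0.39, adjusted p = 0.636).

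Atrial tissue was gauged by its own markers, since Nppa is also one of them. Of 5 tested atrial markers Nppa and Dkk3, a secreted protein of the Dickkopf family, rose and 3 did not pass. Dkk3 was at 9.34 CPM in replicate 3 of the Cre hearts, 3.95 to 4.15 CPM in the other Cre hearts and 0.845 to 2.11 CPM in floxed hearts, without overlap. Its adjusted p of 0.0464 rose above the threshold with any of the 8 libraries left out (0.0522 to 0.184, highest without that heart), while its log2 difference stayed between 1.33 and 1.89. The list summed to 515 to 1018 CPM in Cre hearts and 131 to 157 CPM in floxed hearts. Nppa alone made up 443 to 932 CPM in Cre hearts and 63.4 to 90.2 CPM in floxed hearts. The atrial genes Sln and Myl7 were at or near 0, at up to 0.0602 CPM and 0.164 CPM in Cre hearts, and up to 0 CPM and 0.359 CPM in floxed hearts. Mybphl was also low, at 0.0602 to 0.229 CPM in Cre hearts and 0 to 0.0322 CPM in floxed hearts, and Bmp10 at 0 to 0.262 CPM in Cre hearts and 0 to 0.0676 CPM in floxed hearts. Myl4, the atrial light chain, lay at 1.27 to 2.29 CPM in Cre hearts and 0.634 to 1.22 CPM in floxed hearts, without overlap, and did not pass (0.69 ± 0.34, adjusted p = 0.484). The part of atrial tissue in the stress genes was not tested.

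Enzymes that supply serine, proline and folate-bound carbon rose together with the transcription factor gene Atf5. They belong to the integrated stress response, in which reduced translation initiation raises ATF4 and its targets. Mthfd2, the mitochondrial folate enzyme, measured 6.21, 7.91, 13.4 and 7.2 CPM in Cre hearts and 2.81, 2.87, 2.16 and 3.16 CPM in floxed hearts. It was 3.05-fold higher without overlap (adjusted p = 0.00195) and passed with any library left out. Aldh18a1, the first enzyme of proline synthesis, averaged 10.2 ± 0.5 CPM in Cre hearts and 6.08 ± 1.08 CPM in floxed hearts (1.64-fold, adjusted p = 0.0176). Psat1, an aminotransferase of serine synthesis, averaged 6.67 ± 0.62 CPM in Cre hearts and 4.04 ± 0.64 CPM in floxed hearts (1.61-fold, adjusted p = 0.0338). Atf5 averaged 59.7 ± 11.9 CPM in Cre hearts and 38.1 ± 6.3 CPM in floxed hearts (1.53-fold, adjusted p = 0.033). Of the 8 fits that left out a library, Aldh18a1 passed in 4, Atf5 in 1 and Psat1 in 0.

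Of the 19 tested genes of the integrated stress response, 5 rose (Mthfd2, Aldh18a1, Gdf15, Atf5 and Psat1), 0 fell and 14 did not pass, with a median of 0.28 on the log2 scale. Leaving out replicate 1 of the Cre hearts kept the count at 4, whereas leaving out any other library, floxed or Cre, lowered it to 1 or 2. The genes for the regulator itself, Atf4 (0.16 ± 0.17), and for CHOP, Ddit3 (0.18 ± 0.15), overlapped between the groups. Asns, asparagine synthetase, averaged 4.601 ± 1.78 CPM in Cre hearts and 2.26 ± 0.82 CPM in floxed hearts (adjusted p = 0.167), and Phgdh, which opens serine synthesis, was at 0.81 ± 0.30 (adjusted p = 0.283). The composite CHOP and ATF4 motif was searched as TGATGNAA on both strands. It was found in 0 of the RefSeq promoters of the 5 risen genes and in 3.97% of all promoters, which bears on these windows only. Of 23 genes of the unfolded protein response, P4hb, a protein disulfide isomerase, rose 1.29-fold (adjusted p = 0.0328). That call failed with any library left out, with adjusted p up to 0.124 without replicate 3 of the Cre hearts.

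**Figure D2:**
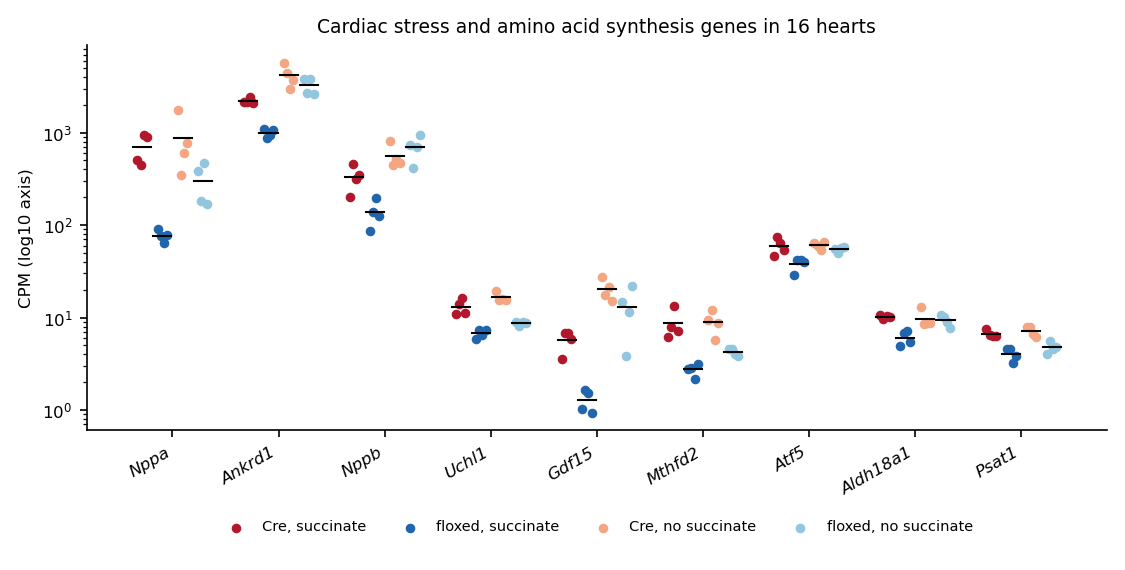
CPM of 5 cardiac stress genes and 4 genes of the integrated stress response (log10 axis), 1 point per heart, with the mean as a bar; Cre hearts stand left of floxed hearts for each treatment. The Cre hearts given succinate lie above the floxed hearts given succinate for each gene, with Nppa at 443 to 932 CPM in Cre hearts and 63.4 to 90.2 CPM in floxed hearts.

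Many of the differing genes lay on chromosome 7, a grouping noticed after the values were seen and given as a description. Chromosome 7 held 22 of the 101 genes (21.8%), 17 higher and 5 lower, with 7.58% of all tested genes. Of its 1107 tested genes 1.99% passed. Chromosome 19 was close at 1.98%, with 10 of 506. Of the 21 genes at least 4-fold higher, 12 were on chromosome 7, and so were 6 of the 10 with the smallest p. Of the skeletal-type genes, Atp2a1, Ryr1, Tnni2, Tnnt3 and Mybpc2 are on chromosome 7, whereas Casq1 and Tnni1 are on chromosome 1 and Acta1 on chromosome 8. Some of these genes are neighbours: 0 protein-coding genes separate Xpo6 from Sbk1, 5 separate Sbk1 from Atp2a1 and 1 separates Tnni2 from Tnnt3 in the RefSeq annotation of build GRCm38.p6. The direction differed between neighbours, since Xpo6 and Sbk1 fell. The floxed gene is on chromosome 3, where 1 of 674 tested genes passed. The sources used here give no insertion site of the transgene.

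**Figure D3:**
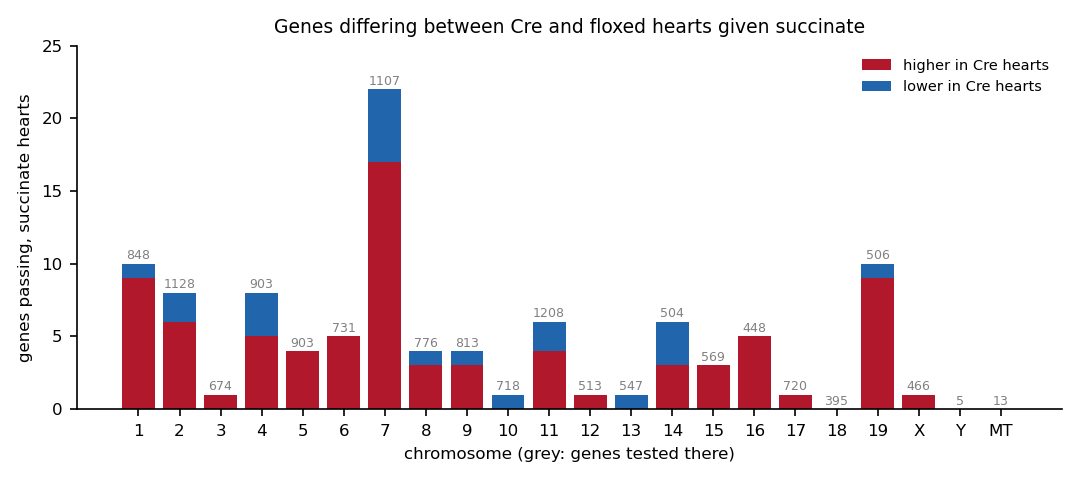
Number of genes passing in hearts given succinate by chromosome, split into those higher and lower in Cre hearts, with the number of genes tested above each bar. Chromosome 7 has the tallest bar, with 17 higher and 5 lower genes of 1107 tested.

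Besides the muscle genes, chromosome 7 carried enzymes and channels that rose. Cyp2b10, a drug-metabolising cytochrome P450 of the liver, measured 8.50, 8.75, 6.005 and 7.38 CPM in Cre hearts and 0.966, 0.946, 0.837 and 0.719 CPM in floxed hearts. It was 8.61-fold higher (adjusted p = 6.94e-07), the second smallest p of all genes. Cyp2e1, another P450, averaged 1.05 ± 0.66 CPM in Cre hearts and 0.108 ± 0.054 CPM in floxed hearts (adjusted p = 0.0213), but failed without replicate 1, 2 or 3 of the floxed hearts or replicate 3 of the Cre hearts (adjusted p up to 0.102). Both rose among 13 tested genes of xenobiotic metabolism, of which 11 did not pass, with a median of -0.02. Cyp2e1 had 4, 2, 2 and 5 counts in the floxed hearts given succinate. It passed the filter on low counts only through Cre hearts, where it was higher, and was not called under a stricter minimum count. The number of risen genes on this list carries that selection. Cyp2b10 has close paralogs, so its reads are uncertain.

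A channel gene and a transporter gene on chromosome 7 rose as well. Kcnj14, an inward rectifier potassium channel, measured 2.32, 2.41, 2.27 and 1.53 CPM in Cre hearts and 0.272, 0.169, 0.322 and 0 CPM in floxed hearts (10.5-fold, adjusted p = 0.000702). Slc17a7, a vesicular glutamate transporter, averaged 35.1 ± 0.7 CPM in Cre hearts and 18.8 ± 4.1 CPM in floxed hearts (1.82-fold, adjusted p = 0.00574). Potassium channels as a list, which does not hold Kcnj14, had 0 of 19 passing in edgeR and 1 in DESeq2, with 5 at an unadjusted p under 0.05, 17 negative values and a median of -0.14.

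Hamp2 and Usp17la had large ratios on few reads in floxed hearts. Hamp2, a hepcidin-family gene, had 24, 47, 28 and 18 counts in Cre hearts and 2, 1, 0 and 0 in floxed hearts. The 117 against 3 counts give a ratio of 36.2 with a 95% counting interval of 12.1 to 178 (adjusted p = 0.000686). Usp17la, a ubiquitin protease gene, had 64 counts in Cre hearts and 1 in floxed hearts, a ratio of 59.4 with a counting interval of 10.3 to 2380 (adjusted p = 0.00385). Hamp2 and Usp17la have close paralogs, so reads may be shared with them. Igsf23, an immunoglobulin superfamily gene, averaged 3.14 ± 0.73 CPM in Cre hearts and 0.627 ± 0.127 CPM in floxed hearts (4.87-fold, adjusted p = 0.0032). BC048679 averaged 1.04 ± 0.32 CPM in Cre hearts and 0.0826 ± 0.0848 CPM in floxed hearts (adjusted p = 0.0069). Hamp2, Usp17la and BC048679 passed the filter on low counts only through the Cre hearts, where they were higher.

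Chromosome 7 genes also fell. Me3, the mitochondrial NADP-dependent malic enzyme, measured 62.8, 63.8, 59.6 and 68.2 CPM in Cre hearts and 90.2, 84.3, 87.8 and 88.7 CPM in floxed hearts, with no overlap. It was at -0.50 ± 0.09 on the log2 scale (adjusted p = 0.0112, and 0.0588 without replicate 3 of the Cre hearts). Sbk1, a serine/threonine kinase gene, averaged 85.2 ± 13.1 CPM in Cre hearts and 127 ± 26 CPM in floxed hearts (-0.62 ± 0.14, adjusted p = 0.0478). Xpo6, a nuclear exporter of actin, averaged 33.3 ± 7.4 CPM in Cre hearts and 49.3 ± 7.9 CPM in floxed hearts (-0.60 ± 0.13, adjusted p = 0.0341). Zfp383, a zinc finger gene, was at -0.51 ± 0.11 (adjusted p = 0.0345). Groups overlapped for Sbk1, Xpo6 and Zfp383, and each failed in at least 5 of the 8 fits that left out a library.

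Of the extracellular matrix list, the proteoglycan gene Bgn passed. Bgn, which encodes biglycan, measured 345, 425, 580 and 388 CPM in Cre hearts and 197, 273, 231 and 255 CPM in floxed hearts. The groups were apart and the fold was 1.77 (adjusted p = 0.0288). It was the only 1 of 36 tested genes of extracellular matrix and fibrosis to pass in edgeR, where 22 reached an unadjusted p under 0.05 and DESeq2 called 9. All 36 had positive values, against 47.7% of all tested genes, with a median of 0.51 on the log2 scale against -0.01 over all genes. Examples short of the threshold were Timp2, an inhibitor of matrix proteases (0.41 ± 0.11, adjusted p = 0.0945), Lum, the proteoglycan lumican (0.83 ± 0.22, adjusted p = 0.103), Col1a1 (0.62 ± 0.26) and Col3a1 (0.60 ± 0.30), the main fibrillar collagens. Passing matrix genes outside that list were Fbln1, fibulin 1 (1.51-fold, adjusted p = 0.0207), Col4a4, a basement membrane collagen (1.63-fold, adjusted p = 0.0336), Col16a1 (1.74-fold, adjusted p = 0.0423) and Matn2, matrilin 2 (1.63-fold, adjusted p = 0.033).

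Single genes of complement and of inflammation, chosen after their values were seen and not tested as a group, were also higher. Masp1, a protease of the lectin pathway, averaged 13.4 ± 1.95 CPM in Cre hearts and 6.38 ± 1.66 CPM in floxed hearts (2.05-fold, adjusted p = 0.0112). C1ra, a protease of the first complement complex, was 1.46-fold higher (adjusted p = 0.0464). Lbp, which binds bacterial lipopolysaccharide, averaged 12.5 ± 3.5 CPM in Cre hearts and 5.32 ± 1.13 CPM in floxed hearts (2.29-fold, adjusted p = 0.00881). Icam1, a leukocyte adhesion molecule, and Cd44, a hyaluronan receptor, were 1.54-fold and 1.76-fold higher (adjusted p = 0.0353 and 0.0164). With each of the 8 libraries left out in turn, Cd44 passed in 6 fits, Icam1 and Col4a4 in 3 and Matn2 in 2.

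Replicate 3 of the Cre hearts was the highest of the 4 Cre hearts for Bgn, Lum, C1ra, Col16a1 and Fbln1. Without it the adjusted p was 0.13 for Bgn, 0.098 for Fbln1, 0.192 for Col16a1 and 0.214 for C1ra. These calls were lost with other libraries left out too: Fbln1 passed in 3 of the 8 fits, and Bgn, Col16a1 and C1ra in 2. Masp1 and Lbp passed with any library left out. Fibroblast markers moved with these genes: 12 markers summed to 3455 to 4920 CPM in Cre hearts and 2611 to 3532 CPM in floxed hearts, ranges that overlapped. Of the 11 tested fibroblast markers 11 had positive values (median 0.41) and 0 passed in edgeR, whereas 7 had an unadjusted p under 0.05 and DESeq2 called 1. Their part in the matrix result was not tested. In bulk tissue, fewer or more cells of a type and less or more RNA per cell cannot be told apart.

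Higher genes also included signalling proteins. Prkcz, an atypical protein kinase C, measured 3.17, 2.17, 2.33 and 3.49 CPM in Cre hearts and 0.785, 0.541, 0.515 and 0.539 CPM in floxed hearts (4.54-fold, adjusted p = 0.000541). Ndnf, a secreted neurotrophic factor, averaged 10.9 ± 2.25 CPM in Cre hearts and 2.83 ± 0.91 CPM in floxed hearts (3.76-fold, adjusted p = 0.00574). Cobl, an actin nucleator, and Epn3, an endocytic adaptor, were 1.71-fold and 2.16-fold higher (adjusted p = 0.000702 and 0.0153), and Epn3 failed without replicate 3 of the floxed hearts (adjusted p = 0.0629). Edn3, an endothelin, averaged 4.84 ± 0.60 CPM in Cre hearts and 1.56 ± 0.97 CPM in floxed hearts (3.05-fold, adjusted p = 0.0305). Nlrc3, an NLR family gene, was 3.53-fold higher (adjusted p = 0.0167). Edn3 passed in 1 of the 8 fits that left out a library (adjusted p up to 0.112, without replicate 1 of the floxed hearts), and Nlrc3 in 3 (up to 0.0652, without replicate 3 of the Cre hearts).

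Krt18 and Tbx15 are better known from other tissues. Krt18, an epithelial keratin, measured 1.08, 1.59, 2.39 and 1.21 CPM in Cre hearts and 0.0906, 0.169, 0.322 and 0.144 CPM in floxed hearts (8.26-fold, adjusted p = 0.00574). Tbx15, a T-box factor of skeletal muscle and limb mesenchyme, averaged 2.02 ± 0.76 CPM in Cre hearts and 0.283 ± 0.137 CPM in floxed hearts (6.87-fold, adjusted p = 0.00391). Both kept groups apart and passed with any library left out. Markers of the epicardium and mesothelium, 7 genes led by Wt1, summed to 4.35 to 6.95 CPM in Cre hearts and 4.83 to 8.14 CPM in floxed hearts.

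Among genes of the receptor pathway itself, 1 of 27 tested genes passed. Grk5, a kinase that desensitises G-protein-coupled receptors, measured 75.5, 74.1, 81.2 and 71.6 CPM in Cre hearts and 47.1, 58.2, 54.1 and 44.3 CPM in floxed hearts, without overlap. It was 1.45-fold higher (adjusted p = 0.0196), but failed in 4 of the 8 fits that left out a library (adjusted p up to 0.0751, without replicate 1 of the floxed hearts). The list of G proteins, phospholipases, kinases and arrestins had a median of 0.01. Of 20 genes that make, oxidise or carry succinate, Abat rose and 19 did not pass, with a median of -0.09. Abat, the GABA transaminase whose product enters the TCA cycle as succinate, averaged 9.36 ± 1.69 CPM in Cre hearts and 3.81 ± 0.91 CPM in floxed hearts (2.39-fold, adjusted p = 0.0117, and 0.0527 without replicate 4 of the Cre hearts). Suclg2, a subunit of succinyl-CoA synthetase, was at -0.24 ± 0.09 (adjusted p = 0.264).

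Lower genes were fewer and mostly smaller in change. Adra1a, the alpha-1A adrenergic receptor of the cardiomyocyte, measured 44.1, 23.2, 36.5 and 37.2 CPM in Cre hearts and 77.3, 60.3, 75.2 and 50.04 CPM in floxed hearts. It fell by 0.94 ± 0.18 (adjusted p = 0.0174), and missed the threshold without replicate 1 or 3 of the floxed hearts or replicate 3 of the Cre hearts (adjusted p up to 0.0728). It was the 1 gene of 21 on the adrenergic and cyclic GMP list to pass.

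Tfpi, the inhibitor of tissue factor, measured 39.8, 38.8, 47.6 and 48.1 CPM in Cre hearts and 60.5, 65.4, 63.0 and 60.8 CPM in floxed hearts (-0.55 ± 0.09, adjusted p = 0.00332). Amph, amphiphysin, averaged 0.874 ± 0.138 CPM in Cre hearts and 2.23 ± 0.29 CPM in floxed hearts (-1.39 ± 0.24, adjusted p = 0.00849). Phyhd1, a dioxygenase gene, was at -0.56 ± 0.09 (adjusted p = 0.00574). Tfpi, Amph and Phyhd1 passed with any library left out. Jak1, a kinase of cytokine receptors, averaged 160 ± 15 CPM in Cre hearts and 220 ± 32.5 CPM in floxed hearts (-0.49 ± 0.10, adjusted p = 0.033). Mhrt, a noncoding RNA antisense to Myh7, was at -0.54 ± 0.10 (adjusted p = 0.0112). As the strandedness of the libraries is not given, its reads and those of Myh7 cannot be told apart. Jak1 passed in 2 and Mhrt in 5 of the 8 fits that left out a library.

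Lower genes also touched metabolism and protein modification. Acsl6, an acyl-CoA synthetase, averaged 9.35 ± 1.34 CPM in Cre hearts and 15.2 ± 3.0 CPM in floxed hearts (-0.73 ± 0.16, adjusted p = 0.0465). Ogdhl, a relative of the TCA cycle enzyme oxoglutarate dehydrogenase, averaged 157 ± 19 CPM in Cre hearts and 226 ± 29 CPM in floxed hearts (-0.56 ± 0.13, adjusted p = 0.0478). Art5, an ADP-ribosyltransferase of muscle, was at -0.65 ± 0.15 (adjusted p = 0.0478), and Fkbp10, a collagen chaperone, at -0.70 ± 0.15 (adjusted p = 0.0328). Tbc1d10c, a regulator of small GTPases, was at -0.71 ± 0.16 (adjusted p = 0.0464). Cabcoco1 (-0.74 ± 0.16), Stum (-0.81 ± 0.17) and the zinc finger gene Zfp612 (-0.61 ± 0.12) were, like Adra1a and Sbk1, among the 10 largest falls of genes averaging at least 1 in log2 CPM. Apart from Adra1a, each gene of this paragraph failed in at least 4 of the 8 fits that left out a library.

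The core of energy metabolism did not pass, and its values leaned slightly negative. Of 27 genes of fatty acid oxidation 0 passed in edgeR, DESeq2 or limma voom. An unadjusted p under 0.05 was reached by 10, against 11.1% of all tested genes. All 27 values were negative (median -0.25), whereas 47.7% of all tested genes had positive values. Slc27a1, a fatty acid transporter, averaged 231 ± 24 CPM in Cre hearts and 313 ± 43 CPM in floxed hearts (adjusted p = 0.175), and Decr1, a beta-oxidation reductase, 497 ± 26 CPM in Cre hearts and 628 ± 40 CPM in floxed hearts (adjusted p = 0.175).

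In the TCA cycle 0 of 20 genes passed in edgeR (4 at an unadjusted p under 0.05, 1 called by DESeq2), with a median of -0.14. Idh2, the mitochondrial NADP-dependent isocitrate dehydrogenase, averaged 1422 ± 138 CPM in Cre hearts and 1863 ± 55 CPM in floxed hearts (-0.42 ± 0.11, adjusted p = 0.0993). For the 70 nuclear-encoded respiratory chain genes 0 passed in edgeR or DESeq2 (2 unadjusted), with a median of -0.12 and 4 positive values. Of 29 glycolysis genes 0 passed (5 unadjusted, 2 by DESeq2), whereas 2 passed in a fit of only the 8 hearts given succinate. Pfkfb1, which sets fructose 2,6-bisphosphate, averaged 7.86 ± 1.76 CPM in Cre hearts and 15.8 ± 3.2 CPM in floxed hearts (adjusted p = 0.0629), and Pfkp, the platelet phosphofructokinase, 66.3 ± 8.1 CPM in Cre hearts and 46.6 ± 4.0 CPM in floxed hearts (adjusted p = 0.0669). Bckdk, the kinase that restrains branched-chain amino acid breakdown, was at -0.32 ± 0.08 (adjusted p = 0.0629).

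NAD is named in the series' subject, and its genes were compared as well. Of 15 genes of NAD synthesis and transport 0 passed in edgeR or DESeq2 and 2 had an unadjusted p under 0.05. The list median was -0.03. Nampt, the rate-limiting enzyme of NAD salvage, averaged 195 ± 6 CPM in Cre hearts and 230 ± 12 CPM in floxed hearts (-0.28 ± 0.11, adjusted p = 0.34), and Nadk2, the mitochondrial NAD kinase, was at -0.34 ± 0.14 (adjusted p = 0.365). Nmrk2, a muscle nicotinamide riboside kinase, averaged 5.60 ± 0.59 CPM in Cre hearts and 3.56 ± 0.93 CPM in floxed hearts (adjusted p = 0.83). Of 19 NAD-consuming genes 0 passed in edgeR (3 unadjusted) and DESeq2 called 3. Bst1, a NAD glycohydrolase, measured 0.818, 1.17, 1.44 and 0.893 CPM in Cre hearts and 0.423, 0.541, 0.322 and 0.539 CPM in floxed hearts. The groups did not overlap, but 1.20 ± 0.30 on the log2 scale did not pass (adjusted p = 0.0838).

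**Figure D4:**
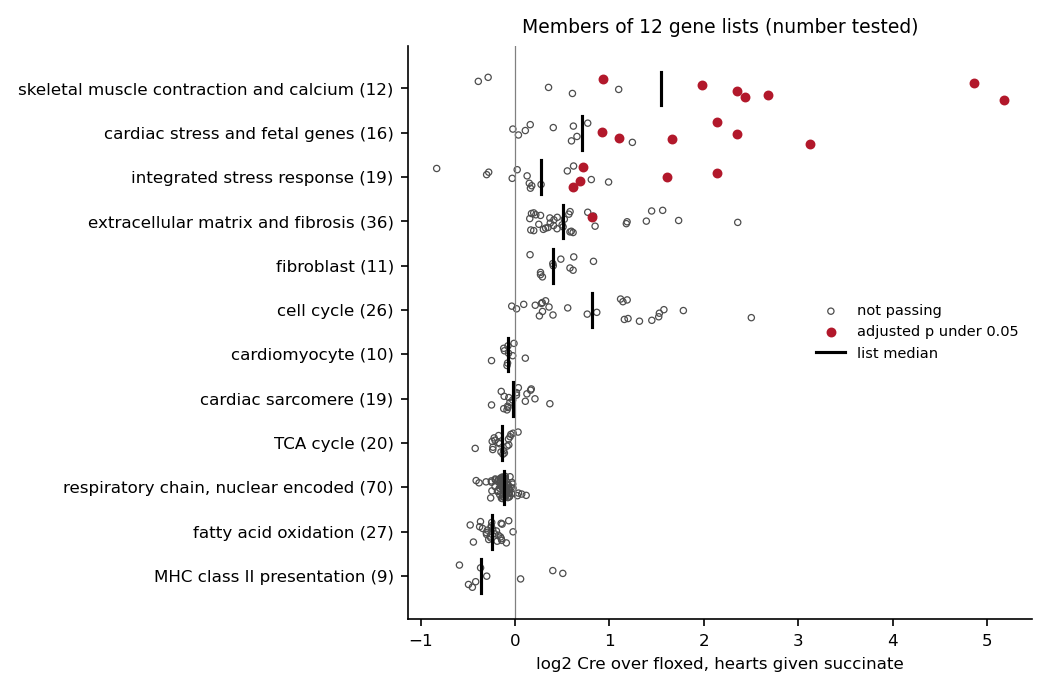
Log2 difference (Cre over floxed, hearts given succinate) of each tested member of 12 gene lists, filled where the adjusted p is under 0.05, with the list median as a black bar and the number tested in brackets. The skeletal muscle list has a median of 1.54 and 7 passing genes, whereas fatty acid oxidation has a median of -0.25 and 0 passing genes.

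Other cell types were compared through their markers. Macrophage markers summed to 253 to 451 CPM in Cre hearts and 204 to 338 CPM in floxed hearts, and endothelial markers to 2440 to 3328 CPM in Cre hearts and 2383 to 3213 CPM in floxed hearts. Of 14 macrophage markers 0 passed in edgeR or DESeq2, with 2 at an unadjusted p under 0.05. Of 13 endothelial markers 0 passed in edgeR (2 unadjusted) and DESeq2 called 1. Of 9 genes of MHC class II presentation 0 passed in edgeR or DESeq2 (1 unadjusted), with a median of -0.36. H2-Ab1, a class II chain, measured 31.3, 37.0, 25.03 and 33.9 CPM in Cre hearts and 24.6, 47.7, 51.3 and 52.2 CPM in floxed hearts, where replicate 1 stood below the other floxed hearts (adjusted p = 0.369). Erythroid markers summed to 65.4 to 218 CPM in Cre hearts and 178 to 280 CPM in floxed hearts. The 6 tested had a median of -0.99, and 0 passed or reached an unadjusted p under 0.05. Cell cycle genes had positive values in 25 of 26 cases (median 0.82), against 47.7% of all tested genes. None passed in edgeR and DESeq2 called 2. An unadjusted p under 0.05 was reached by 15, against 11.1% of all tested genes.

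The same genotypes without succinate gave a fresh set of libraries for the same contrast, sharing only the estimate of each gene's spread. There 16 genes passed (0.110%), 13 higher (0.0890%) and 3 lower (0.0205%), and 1278 reached an unadjusted p under 0.05 (8.75%). Both comparisons called 12 genes, in the same direction, which is 11.9% of the 101 and 75% of the 16. Among them were Atp2a1, Ryr1, Tnni1, Tnni2, Cyp2b10, Hamp2, Uchl1, Cobl and Epn3, each higher, and Tfpi, lower. Atp2a1 measured 14.5, 12.7, 9.45 and 9.999 CPM in untreated Cre hearts and 0.140, 0.757, 0.311 and 0.273 CPM in untreated floxed hearts (4.91 ± 0.26, adjusted p = 2.77e-09). The groups lay far apart for this gene, and the untreated groups did not overlap in 4.58% of all tested genes. Cyp2b10 averaged 4.08 ± 0.47 CPM in untreated Cre hearts and 0.328 ± 0.175 CPM in untreated floxed hearts (3.59 ± 0.27, adjusted p = 5.45e-07). The count of 16 was 7 without replicate 1 and 4 without replicate 3 of the untreated floxed hearts.

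Of the 101 genes called with succinate, 97 had the same sign without it, against 58.2% of all tested genes. The same sign with an unadjusted p under 0.05 was found for 67 (66.3%), against 6.65% of all tested genes. The 4 of opposite sign were Jak1, Mhrt, Rtn4r and Slc7a7. Rtn4r, a receptor for myelin inhibitors, was at 1.57 with and -0.13 without succinate, and the amino acid transporter gene Slc7a7 at 0.94 with and -0.16 without it. Rtn4r and Slc7a7 passed in 0 of the 8 fits that left out a library. Nppa was at 1.47 ± 0.43 without succinate (adjusted p = 0.336), Ankrd1 at 0.34 ± 0.16 (adjusted p = 0.567) and Mthfd2 at 1.06 ± 0.22 (adjusted p = 0.102). Untreated Cre hearts ranged from 353 to 1757 CPM for Nppa, a wider spread than the 443 to 932 CPM with succinate.

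Passing with succinate and not without it does not show that the genotype effect differed between treatments. The test of that difference, the genotype by succinate interaction, called 0 of 14607 genes in edgeR (0%). The smallest adjusted p was 0.93, and 709 genes reached an unadjusted p under 0.05 (4.85%). There were 4 calls by DESeq2 and 0 by limma voom. Nppb was at 1.60 ± 0.41 in the interaction and Ankrd1 at 0.76 ± 0.23, and Kcnj14 and Ryr1 at 2.33 ± 0.58 and 2.37 ± 0.69 (each with adjusted p = 0.93). Among the 5 genes of smallest interaction p were Xrn2, a nuclear exonuclease (-0.63 ± 0.13), Eif3j2 (1.65 ± 0.35) and Hectd2os, a noncoding transcript (1.08 ± 0.24). Hectd2os measured 10.2, 8.15, 9.47 and 10.1 CPM in Cre hearts and 4.23, 3.75, 3.64 and 3.38 CPM in floxed hearts with succinate (2.46-fold, adjusted p = 0.000899). Without succinate it averaged 12.4 ± 3.3 CPM in Cre hearts and 10.4 ± 2.5 CPM in floxed hearts.

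The 4 genes called only without succinate gave other patterns. Eif3j2, a translation initiation factor gene with a close paralog, averaged 1.66 ± 0.38 CPM in untreated Cre hearts and 4.6 ± 0.89 CPM in untreated floxed hearts (adjusted p = 0.0192), and with succinate 5.59 ± 1.28 CPM in Cre hearts and 4.85 ± 1.44 CPM in floxed hearts. Without replicate 3 of the floxed hearts given succinate, its value with succinate changed sign (0.16 with all hearts, -0.04 without it). Gvin3, an interferon-inducible GTPase gene, averaged 1.89 ± 0.82 CPM in untreated Cre hearts and 0.512 ± 0.169 CPM in untreated floxed hearts (adjusted p = 0.0461), and with succinate 0.856 ± 0.122 CPM in Cre hearts and 0.807 ± 0.039 CPM in floxed hearts. Urah, a urate pathway hydrolase, was at 2.65 ± 0.43 without succinate (adjusted p = 0.0136) and 1.09 ± 0.38 with it (adjusted p = 0.24). Dcakd was at -0.59 ± 0.11 without succinate (adjusted p = 0.0393) and -0.23 ± 0.11 with it (adjusted p = 0.466).

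**Figure D5:**
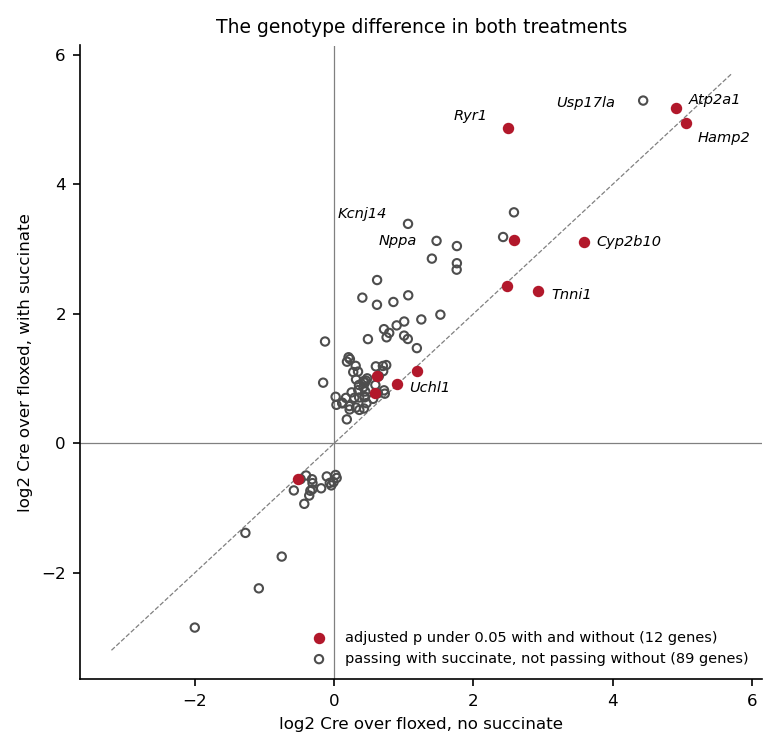
Log2 difference (Cre over floxed) of the 101 genes passing in hearts given succinate, plotted with succinate (vertical) against without succinate (horizontal); filled points passed in both comparisons, and the dashed line marks equal values. The points lie on the same side of 0 on both axes for 97 genes, with Atp2a1 at 5.18 with and 4.91 without succinate and Tfpi at -0.55 with and -0.53 without it.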

How the data were processed

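Bulk RNA from 16 mouse hearts was sequenced, extracted with TRIzol and prepared with a VAHTS kit per the labels' protocols. The authors deposited a table of raw counts per gene and a table of FPKM, both for 24371 genes. The submitters' processing notes name fastp, HISAT2, HTSeq, R, DESeq2 and build GRCm39 without roles, and the sources used here do not state strandedness. FPKM recomputed from the deposited counts and lengths matched the deposited values, so the FPKM add no depth.

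Counts were tested with edgeR 4.0.16 (R 4.3.3): TMM scaling, filterByExpr with a minimum count of 10, 1 fit of 4 group means over all 16 hearts with robust quasi-likelihood (residual degrees of freedom 12), with p-values adjusted by Benjamini-Hochberg over 14607 genes and a threshold of 0.05. DESeq2 1.42.0, limma 3.58.1, other filters, log2(FPKM + 1) and leaving out each library were alternatives. CPM use the library total. Totals were 27835235 to 34700996 counts, intervals are at 95% and cover counting error only, and the Sucnr1 test used scipy 1.17.1. The script was tested on simulated data.

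Genes named were Sucnr1, the 10 largest changes in each direction at a mean log2 CPM of at least 1, members of 51 gene lists that passed or had the smallest p, the genes passing without succinate and the 5 smallest interaction p-values. The contrast, lists and members were chosen with earlier results of these data known. Acta1, Amph, Asns, Atf4, Atp2a2, BC048679, C1ra, Cacna1s, Casq2, Cd44, Col16a1, Col1a1, Col3a1, Col4a4, Ddit3, Edn3, Fbln1, Icam1, Igsf23, Jak1, Kcnj14, Krt18, Lbp, Masp1, Matn2, Me3, Mhrt, Myl1, Mylpf, Nmrk2, Nppb, Ogdhl, Phgdh, Phyhd1, Psat1, Rtn4r, Ryr2, Slc17a7, Slc7a7, Tbx15, Timp2, Tnnt2, Usp17la, Xpo6 and Zfp383 were chosen after their values were seen. Chromosomes came from RefSeq (GRCm38.p6) by Entrez number, matching 23549 of 24371 genes. A table of protein sequences was not used here, and some genes that the rule picks are not reported here.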

Additional observations from a re-analysis of the deposited data

Results flagged for a closer look

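Among 264 groups of 4 hearts over the genes named, 20 had 1 heart far from the other 3 by Dixon's test at the 95% level. Chance flags about 1 in 20 groups. Among Cre hearts given succinate, replicate 3 stood apart for Dkk3 (9.34 CPM), Zfp383 (9.04 CPM), Fkbp10 (29.6 CPM), Acsl6 (7.35 CPM) and Idh2 (1215 CPM). Replicate 1 stood apart for Slc27a1 (266 CPM) and Nmrk2 (6.48 CPM), replicate 2 for Tnni2 (5.78 CPM) and replicate 4 for Kcnj14 (1.53 CPM).

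Among floxed hearts given succinate, replicate 1 stood apart for Igsf23 (0.815 CPM), Prkcz (0.785 CPM), Acsl6 (19.6 CPM) and H2-Ab1 (24.6 CPM). Replicate 3 stood apart for Eif3j2 (2.70 CPM), and replicate 4 for Usp17la (0.0359 CPM), C1ra (27.1 CPM) and Ptk2b (6.11 CPM). Among untreated hearts, Uchl1 stood apart in replicate 1 of the Cre hearts (19.3 CPM), Ryr1 in replicate 1 of the floxed hearts (0.386 CPM) and Hamp2 in replicate 2 of the floxed hearts (0.0315 CPM).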

How the results depend on the processing

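The 101 genes called with succinate became 327 by DESeq2 and 190 by limma voom, all 101 being among those of DESeq2. On the log2(FPKM + pseudocount) scale the count was 62 with a pseudocount of 0.1, 49 at a mean FPKM of at least 1 and 32 without a filter. In a fit of only the 8 hearts given succinate it was 142, of which 80 were among the 101. Genes lost there included Tnni1, Atf5, Psat1, Icam1 and Usp17la. Of the extracellular matrix list 6 passed there instead of 1, and of the integrated stress response 3 instead of 5. Glycolysis had 2 passing genes there instead of 0, and fatty acid oxidation, the TCA cycle and the nuclear-encoded respiratory chain had 0. The count was 44 to 92 with a library left out. Of the called genes 79.2% were higher, against 72.5% by DESeq2 and 70.5% by voom. Without succinate, the 16 calls became 90 by DESeq2, 10 with a pseudocount of 0.1, 7 at a mean FPKM of at least 1 and 3 in a fit of only those 8 hearts, and 4 to 23 with a library left out. The interaction gave 0 calls, 4 by DESeq2 and 1 on FPKM without a filter. Of the 101 genes, 13 passed under each of 20 alternatives, and 0 reversed. Among single genes, 4 values reversed: Ryr2 at 0.016, 0.026 and 0.085 (range -0.176 to 0.085 over the fits that left out a library) and Eif3j2 at -0.043 (range -0.043 to 0.294). The cause was not tested. With replicate numbers as a block, 92 genes passed with succinate, 11 without and 0 in the interaction. Of those 92, 78 were among the 101. Cre and floxed hearts of the same number had correlations of 0.32, 0.054, -0.002 and 0.028 with succinate. Without it the values were 0.269, 0.047, 0.008 and 0.067. In both treatments, Cre replicates 1 and 4 correlated best with the floxed heart of their own number, and replicates 2 and 3 did not. What a shared number stands for is not in the labels and was not tested. Depth limits Sucnr1 and the genes at a few counts in floxed hearts (Ryr1, Tnni1, Cyp2e1, Hamp2, Usp17la).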
